A study of Mus musculus with 2 samples.

Results

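The genes described here are the cyclins, kinases and inhibitors that govern the passage out of G1: Ccnd1, Ccnd2, Ccnd3, Ccne1, Ccne2, Cdk4, Cdk6, Cdkn1a and Cdkn1b. They are the rows with these symbols, 9 of the 32285 genes counted. Their unique molecular identifiers (UMIs, one per captured transcript molecule) were read in the 6272 of 9862 deposited cells in which over 2000 but under 9000 genes were detected and mitochondrial UMIs made up under 10%, and were described across cell classes and by library. The series consists of a pair of single-cell RNA libraries of eYFP-sorted cells from mouse embryos at E13.5. The control library is from *Isl1-Cre; R26R-eYFP* embryos and the mutant library from *Isl1-Cre; R26R-eYFP; Pik3caH1047R* embryos, in which Cre also switches on the activated p110α variant of PI3K. Each library pooled the upper bodies, above the liver, of 3 eYFP-positive embryos of a mixed C57BL/6J and Crl:CD1(ICR) background, and the tissue is labelled pharyngeal arch. In both groups Cre is driven by *Isl1*, so the sorted cells descend from any lineage that has expressed *Isl1*, and both the reporter and the variant sit behind a floxed stop at the *Rosa26* locus. Transcripts of the variant were not counted apart from those of the endogenous gene.

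D-type cyclins bind CDK4 and CDK6 in response to growth signals, PI3K signaling among them, and these complexes begin the phosphorylation of the retinoblastoma protein that releases E2F transcription factors. E2F then raises the E-type cyclins, which activate CDK2 and carry the cell into S phase. The products of Cdkn1a (p21) and Cdkn1b (p27) bind these complexes and hold CDK2 in check. p21 is transcribed in response to p53 and also when muscle precursors leave the cycle, whereas p27 is transcriptionally raised by FOXO factors, which PI3K and AKT restrain.

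The control library held 66935720 UMIs and the mutant library 73915525, with 63153191 and 69717583 in the cells that passed the filter. Those cells had a median of 20412 UMIs in the control (2783 cells) and 16839 in the mutant (3489 cells). There was 1 library per genotype, so no difference between genotypes was tested, and genotype, library and the pooled embryos cannot be told apart. By *Xist* and Y-linked transcripts, 95.5% of the filtered control cells were female-like, against 33.6% of the mutant cells, with 53.3% male-like. Female and male cells of a pool come from different embryos, so sex and embryo cannot be told apart either. The libraries shared 28 cell barcodes. Cells were assigned to 7 classes by marker genes that were compared between libraries: EC-like (162 control and 751 mutant cells, with 19 and 16 of 20 endothelial markers raised in its clusters), branchial muscle-like (888 and 845), mesenchyme-like (596 and 532), epithelium-like (176 and 272), mesothelium-like (70 and 65), neuron-like (194 and 467) and cardiomyocyte-like (54 and 184).

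Levels are given as CPM, the UMIs of a gene per 1000000 UMIs of the class, and differences as the log2 ratio of the mutant over the control CPM. Intervals in parentheses are 95% intervals and cover counting error only, not the variation between cells or between embryos. A value was called higher or lower where the libraries differed by more than 1.5-fold and the mean of both was at least 20 CPM. Of the 63 values of the 9 genes over 7 classes, 7 were called higher and 10 lower in the mutant, 39 lay within 1.5-fold and 7 were below the level at which calls were made. With the class totals rescaled by TMM factors, which move the median of all genes on the log2 scale (0.11 in EC-like, 0.12 in neuron-like, 0.14 in cardiomyocyte-like and -0.12 in mesothelium-like cells), 13 were higher and 9 lower. No share over all genes is given under that scaling, so this change cannot be set apart from a change in the background.

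**Figure D1:**
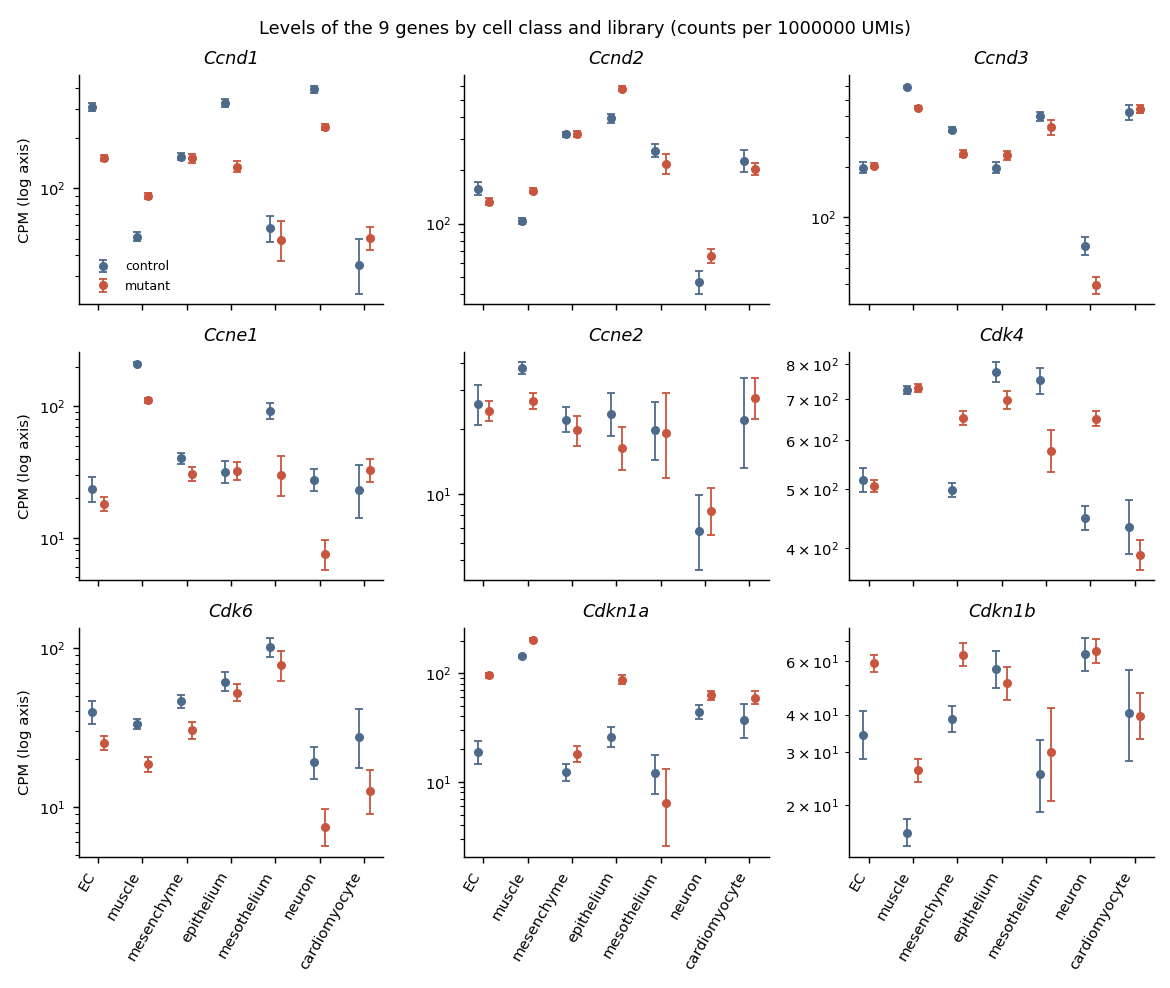
Level of each gene (CPM, log axis) in the 7 classes, control in blue and mutant in red, with bars for the 95% counting interval. The vertical scale differs between panels. *Cdk4* spans 1.79-fold between its lowest and highest class in the control, whereas *Cdkn1a* spans 11.9-fold in the control and 32.0-fold in the mutant.

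*Ccnd1* (chr7:144929931-144939925, minus strand; positions of genes are from GENCODE M21 on GRCm38), the D-type cyclin most closely tied to mitogen signals, was the D-type cyclin whose level differed most between the libraries. In EC-like cells 1094 UMIs put the control at 308 CPM and 2277 put the mutant at 151 CPM, a log2 ratio of -1.02 (-1.13 to -0.92). In epithelium-like cells it was at 325 and 135 CPM, a ratio of -1.27 (-1.41 to -1.13), and in neuron-like cells at 393 and 234 CPM, a ratio of -0.75 (-0.85 to -0.65). The opposite direction was seen in branchial muscle-like cells, where the control stood at 51.4 CPM and the mutant at 90.1 CPM (0.81, 0.70 to 0.92). Mesenchyme-like cells held 155 and 151 CPM and differed by less than the counting error. *Ccnd1* was thus called lower in 3 classes and higher in 1. Neuron-like cells had the highest level in both libraries, and in the control its interval did not overlap that of epithelium-like cells, the next class. This rank did not hold among cells called G1, which were 87.7% and 87.8% of the neuron-like cells given a phase. There neuron-like cells held 180 and 59.2 CPM, below EC-like (274 and 131 CPM) and epithelium-like cells (279 and 91.3 CPM). Over cells of all phases, the lowest control level was in cardiomyocyte-like cells (34.6 CPM) and the lowest mutant level in mesothelium-like cells (49.1 CPM). The span between classes was then 11.3-fold in the control and 4.76-fold in the mutant.

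*Ccnd2* (chr6:127125162-127152193, minus strand) passed the fold limit in none of the 7 classes in the main values. Its largest differences were in branchial muscle-like cells, from 103 to 154 CPM (0.58), and in epithelium-like cells, from 393 to 579 CPM (0.56, 0.47 to 0.65). These were 1.49-fold and 1.47-fold, just under the limit. Among G1-called cells the branchial muscle-like ratio was 0.94 (0.74 to 1.13), beyond the limit. Over female-like cells the ratio was beyond it in epithelium-like (0.65) and neuron-like cells (0.67). In each of these settings the other classes lay within 1.5-fold. *Ccnd2* was highest in epithelium-like and lowest in neuron-like cells in both libraries. The third D-type cyclin, *Ccnd3* (chr17:47505051-47599691, plus strand), was highest in branchial muscle-like cells, at 596 CPM in the control and 449 CPM in the mutant (-0.41). It was called lower in 1 class, neuron-like cells, where it was also at its lowest (67.1 and 39.3 CPM; -0.77, -1.02 to -0.53). In EC-like cells it was at 197 and 202 CPM, a ratio of 0.04 (-0.08 to 0.16).

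The balance among the D-type cyclins therefore differed between classes and, in some, between libraries. A UMI in a 5′ library marks the end of 1 molecule whatever its length, so the UMIs of the 3 genes were summed and each expressed as a share of that sum, without division by transcript length. In EC-like cells *Ccnd1* made up 46.5% of D-type cyclin UMIs in the control (exact Clopper-Pearson interval 44.5% to 48.6%) and 31.1% in the mutant (30.1% to 32.2%). The summed D-type level was 662 CPM in the control and 486 CPM in the mutant, and *Ccnd3* took the larger share in the mutant, 41.6% against 29.8%. Epithelium-like cells went from 35.5% to 14.2% *Ccnd1*, with *Ccnd2* at 42.9% and 61.1% and the sum nearly equal (915 and 947 CPM). Branchial muscle-like cells were dominated by *Ccnd3*, with 79.4% in the control and 64.8% in the mutant, and *Ccnd1* stood at 6.85% and 13%. Neuron-like cells as a class were dominated by *Ccnd1* (77.5% and 69.0%). In the smaller of their clusters, however, the control held more *Ccnd3* (83.8 CPM) than *Ccnd1* (60.6 CPM). The mutant held more *Ccnd1* there (166 against 46.6 CPM). In mesothelium-like cells the *Ccnd1* share was 8.05% in both libraries, and their *Ccnd2* and *Ccnd3* shares lay within the counting intervals of one another between libraries.

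**Figure D2:**
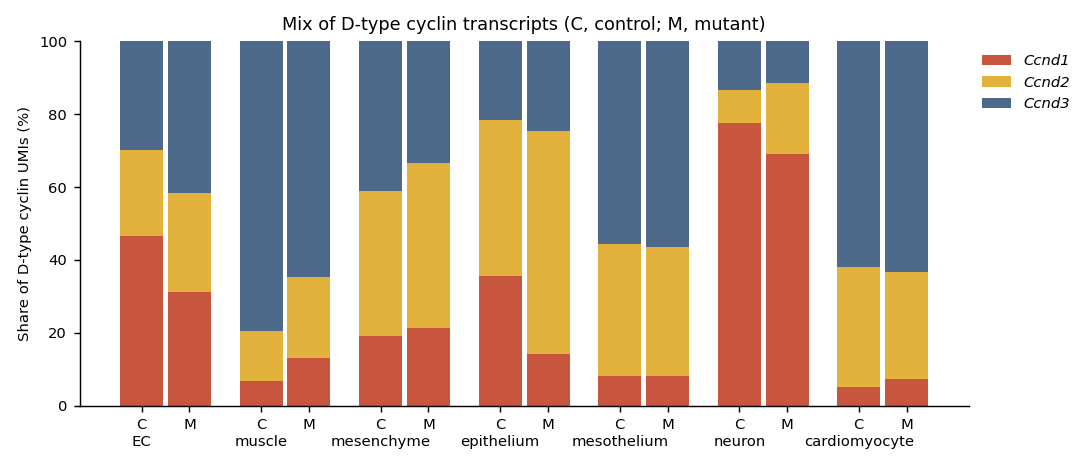
Share (%) of *Ccnd1* (red), *Ccnd2* (yellow) and *Ccnd3* (blue) in the summed D-type cyclin UMIs of each class, control (C) and mutant (M). The red segment is shorter in the mutant bar of EC-like cells (46.5% to 31.1%) and epithelium-like cells (35.5% to 14.2%) and longer in that of branchial muscle-like cells (6.85% to 13%).

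Among the E-type cyclins, *Ccne1* (chr7:38097984-38107534, minus strand) was highest in branchial muscle-like cells in both libraries, at 212 CPM in the control and 111 CPM in the mutant, and was called lower there (-0.93, -1.0 to -0.86). It was also called lower in mesothelium-like cells, from 92.0 CPM with 200 UMIs to 30.0 CPM with 33 UMIs, a ratio of -1.62 (-2.19 to -1.08). Mesothelium-like cells differed in depth and phase as well: the median was 28114 UMIs per cell in the control and 14430 in the mutant, and 52.9% and 73.0% of the cells were called G1, and the part of these in the *Ccne1* difference was not tested. EC-like cells held little *Ccne1*, 23.4 and 18.1 CPM, and the interval of the ratio reached 0 (-0.37, -0.73 to 0.00). *Ccne2* (chr4:11191351-11204779, plus strand), the second E-type cyclin, ranged from 6.81 to 37.9 CPM over the control classes and was called in no class. It lay within 1.5-fold in 4 classes and below the level for calls in the other 3.

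The window around the *Ccne1* start is shown because it holds several short sequences of the kind bound by hypoxia-inducible factors, whose activity PI3K signaling can raise. It spans chr7:38107441-38107740 (GRCm38.p6, minus strand; RefSeq), from 250 bases before to 50 bases after the start, and its capitals mark ACGTG or GCGTG on either strand, the core of the hypoxia response element.
Ccne1: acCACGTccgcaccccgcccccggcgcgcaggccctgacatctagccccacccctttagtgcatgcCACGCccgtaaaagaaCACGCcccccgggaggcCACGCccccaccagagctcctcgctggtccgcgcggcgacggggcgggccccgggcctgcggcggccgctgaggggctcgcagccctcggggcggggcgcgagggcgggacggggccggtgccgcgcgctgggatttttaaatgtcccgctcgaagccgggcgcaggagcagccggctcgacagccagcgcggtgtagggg
The core occurred 4 times, at -248, -184, -168 and -151 from the start. At least 1 such core was present in 43.8% of the 32851 promoter windows of the same length and 4 or more in 3.86%. Any CACGTG also counts here, on both strands, but the *Ccne1* window holds none. The *Cdk4* window held 8 matches to the core, all within CACGTG, and the *Cdk6* window 3. Strings bound by E2F (TTTCCCGC, TTTGGCGC, TTTCGCGC or TTTGCCGC, either strand) occurred in 2.26% of all windows and in none of those of the 6 described genes that had a window (*Ccnd3*, *Ccne1*, *Cdk4*, *Cdk6*, *Cdkn1a* and *Cdkn1b*). Such matches of letters are a description of the reference sequence and were not tied to binding.

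*Cdk4* (chr10:127063534-127067920, plus strand), the catalytic partner of the D-type cyclins, showed the narrowest span of the 9 genes. It ranged from 434 CPM in cardiomyocyte-like to 776 CPM in epithelium-like control cells (1.79-fold), and from 390.0 to 731 CPM in the mutant (1.87-fold), and was called in no class. EC-like cells held 518 and 506 CPM (-0.03, -0.11 to 0.04) and branchial muscle-like cells 724 and 731 CPM (0.01). The largest difference was in neuron-like cells, from 448 to 651 CPM (0.54, 0.46 to 0.62), followed by mesenchyme-like cells, from 498 to 653 CPM (0.39, 0.34 to 0.45). The lowest ratio was in mesothelium-like cells, which went from 751 to 578 CPM (-0.38). *Cdk4* is a known target of MYC, and its window, chr10:127063285-127063584 (GRCm38.p6, plus strand; RefSeq), is shown for the E-boxes through which MYC binds, CACGTG, which are in capitals.
Cdk4: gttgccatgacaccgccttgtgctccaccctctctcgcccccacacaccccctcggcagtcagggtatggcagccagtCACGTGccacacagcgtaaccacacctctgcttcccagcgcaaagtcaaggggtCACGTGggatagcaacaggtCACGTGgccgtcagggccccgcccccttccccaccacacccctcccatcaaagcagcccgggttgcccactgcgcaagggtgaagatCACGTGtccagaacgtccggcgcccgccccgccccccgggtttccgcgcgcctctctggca
There were 4 E-boxes, at -172, -118, -98 and -11 from the start. E-boxes occurred in 7.15% of all windows, and only 8 of the 32851 windows (0.0244%) held 4 or more. The window of *Cdk6* held 1, at -220.

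*Cdk6* (chr5:3341485-3531008, plus strand), the other D-type cyclin kinase, was lower in the mutant library in all 7 classes, with intervals below 0 in 6 of them, although in neuron-like cells, where it was below the level for calls, the ratio was 0.42 when clusters were made without integration. It was called lower in 4: EC-like (39.7 to 25.3 CPM; -0.65, -0.93 to -0.36), branchial muscle-like (33.3 to 18.6 CPM; -0.84, -1.02 to -0.66), mesenchyme-like (46.2 to 30.5 CPM; -0.60, -0.83 to -0.38) and cardiomyocyte-like cells (27.7 to 12.6 CPM; -1.14, -1.90 to -0.34). Those levels are low, and the last rests on 24 control and 41 mutant UMIs. Its order across classes was the same in the libraries, rising from neuron-like through cardiomyocyte-like, branchial muscle-like, EC-like, mesenchyme-like and epithelium-like to mesothelium-like cells. The EC-like ratio stayed beyond 1.5-fold in 6 of the 12 alternative settings that could change it and the mesenchyme-like ratio in 9. The neuron-like ratio without integration covered another set of cells, 87 control and 134 mutant. A cluster of 160 control and 355 mutant cells, with 15 of 16 neuron markers raised, took no class name in that setting.

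*Cdkn1a* (chr17:29090976-29100727, plus strand), which encodes p21, showed the largest difference of any of the 9 genes in any class. EC-like cells held 67 UMIs (18.9 CPM) in the control and 1441 UMIs (95.8 CPM) in the mutant, a log2 ratio of 2.35 (1.99 to 2.72). Epithelium-like cells held 90 UMIs (26 CPM) and 424 UMIs (87.4 CPM), a ratio of 1.75 (1.42 to 2.10). It was also called higher in cardiomyocyte-like cells (37.0 and 59.7 CPM; 0.69, 0.15 to 1.28). Branchial muscle-like cells had the highest level in both libraries, 143 and 204 CPM, and their difference did not reach the fold limit (0.51, 0.45 to 0.58), as was the case in neuron-like cells (44.2 and 62.6 CPM; 0.50). Mesenchyme-like and mesothelium-like cells were below the level for calls. In all, the ratio was positive in 6 of 7 classes, with the interval above 0 in each of the 6. The direction turned in 3 of those classes under another choice of cells. Over female-like cells it was -0.93 (-1.78 to -0.17) in mesenchyme-like and -1.52 in cardiomyocyte-like cells, and with cells of at least 1000 genes it was -0.09 in neuron-like cells.

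The share of cells with at least 1 *Cdkn1a* UMI was taken on cells thinned to 5000 UMIs, with 61 cells of the control and 173 of the mutant too shallow to enter. It was 5.03% in control and 23.5% in mutant EC-like cells, and 10.9% and 23.3% in epithelium-like cells. In branchial muscle-like cells it was 24.5% and 26.3%, nearly the same share of cells beside the higher CPM there. The make-up of that class differed between libraries. Its cluster led by *Myh3* and *Myog*, where *Cdkn1a* was highest, had 303 of the 888 control and 218 of the 845 mutant cells. The part of this in the shares and in the ratio of the class was not tested. Without thinning, the EC-like shares were 15.4% and 40.4%, at a median of 20288 and 17313 UMIs per cell. As a background level, a cluster led by *Adh1*, *Wnt2* and *Tbx4* (median 23702 and 24011 UMIs) had thinned shares of 1.46% in the control and 1.41% in the mutant. The control share was the lowest of any cluster, and in the mutant only the 22 thinned neural crest-like cells, with 0%, were lower (exact interval up to 15.4%). The *Cdkn1a* UMIs were unevenly held: 50% of them came from 4 of 162 control EC-like cells and from 44 of 751 mutant EC-like cells.

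The EC-like *Cdkn1a* ratio was smallest where cells were classed in another way. Where each cell was placed by its own marker counts, without clusters, the ratio was 0.85, still beyond 1.5-fold. Under that placement 160 control cells were EC-like, and 14 of them belonged to a cluster led by globin and macrophage genes, which supplied 132 of the 204 control *Cdkn1a* UMIs. That cluster was not among the compared classes, and in it *Cdkn1a* was at 242 CPM in the control and 69.2 CPM in the mutant. In the EC-like class, the summed macrophage markers were at 84.2 CPM in the control and 27.9 CPM in the mutant, and those of epithelium at 18 and 65.7 CPM and of cardiomyocytes at 75.2 and 228 CPM, against 7859 and 7848 CPM for the endothelial markers. The part of these other cell types in the ratio was not tested further. In the epithelium-like class, the summed epithelial markers were at 3591 and 5292 CPM, and those of smooth muscle and mural cells at 98.7 and 664 CPM and of mesothelium at 130 and 527 CPM, and their part in the *Cdkn1a* and *Ccnd1* ratios was not tested.

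*Cdkn1a* has an annotated start upstream of the main one, and the window around it, chr17:29090729-29091028 (GRCm38.p6, plus strand; RefSeq), is shown for the pair of CATG cores of the kind that p53 binds. The letters searched, CATGNNNNNNCATG with the same letters on both strands, were chosen after the window had been read, and the match is in capitals.
Cdkn1a: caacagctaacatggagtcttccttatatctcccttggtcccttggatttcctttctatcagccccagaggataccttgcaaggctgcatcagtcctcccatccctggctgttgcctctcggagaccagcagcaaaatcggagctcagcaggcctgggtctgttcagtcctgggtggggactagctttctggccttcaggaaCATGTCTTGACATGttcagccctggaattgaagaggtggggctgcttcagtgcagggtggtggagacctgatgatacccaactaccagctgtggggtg
The pair lies at -48 from that start, and 0.712% of all windows held one. The window of the other *Cdkn1a* start, chr17:29093519-29093818, did not. It held 1 hypoxia response core, at -206, the first window none.

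*Cdkn1b* (chr6:134920401-134925513, plus strand), which encodes p27, was called higher in 3 classes and lower in none in the main values. In epithelium-like cells the main ratio was -0.16 with an interval that held 0. Among G1-called epithelium-like cells it was beyond the fold limit in the lower direction, from 76.9 to 45.2 CPM (-0.77, -1.18 to -0.35). Over female-like epithelium-like cells it was -0.43 (-0.83 to -0.04). In EC-like cells 122 control UMIs gave 34.3 CPM and 891 mutant UMIs gave 59.3 CPM (0.79, 0.51 to 1.07). Mesenchyme-like cells went from 38.7 to 63.2 CPM (0.71, 0.52 to 0.90) and branchial muscle-like cells from 16.2 to 26.1 CPM (0.69, 0.49 to 0.88). The latter had the lowest *Cdkn1b* level of the 7 classes in both libraries, in contrast to their *Cdkn1a*, which was the highest. Neuron-like cells had the highest level and did not differ beyond counting error (63.3 and 65.1 CPM). In the mesenchyme-like class, the summed mesenchyme markers were at 13140 CPM in the control and 4877 CPM in the mutant. The part of this in the *Cdkn1b*, *Cdk6* and other ratios of that class was not tested. A FOXO string (TGTTTAC, either strand), present in 3.65% of all windows, was not among the 300 bases around the *Cdkn1b* start, which held CCAAT boxes at -161, -35 and 45 (CCAAT on either strand was in 37.4% of all windows).

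**Figure D3:**
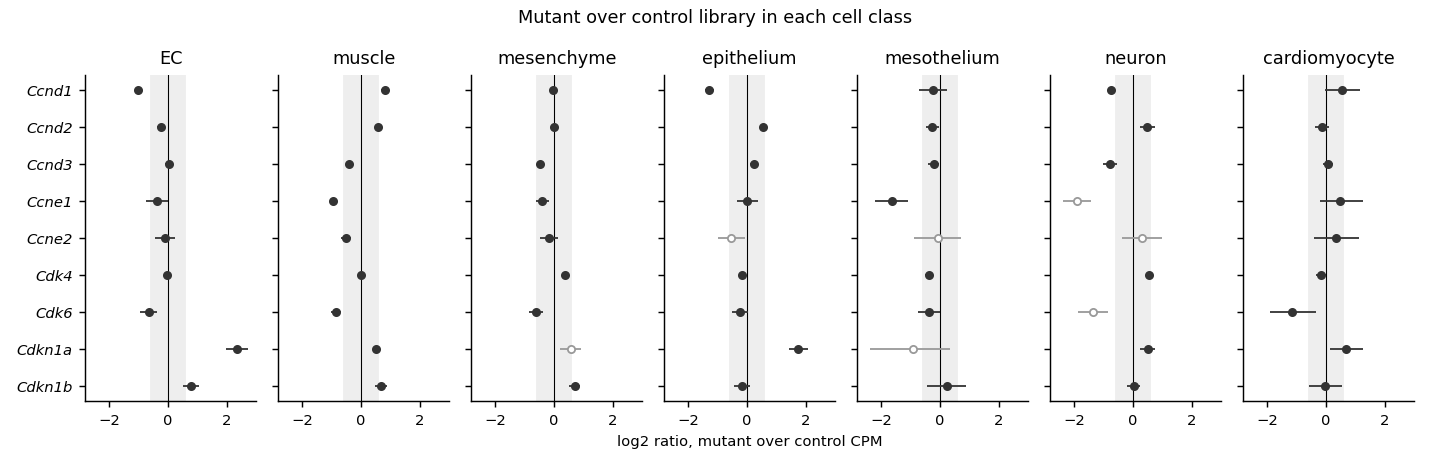
Log2 ratio of mutant over control CPM for each gene in the 7 classes, with 95% counting intervals. The gray band is 1.5-fold either way and open points are below a mean of 20 CPM. *Cdkn1a* lies at 2.35 in EC-like and 1.75 in epithelium-like cells, and *Ccnd1* at -1.02 and -1.27, whereas *Ccnd1* in branchial muscle-like cells lies at 0.81.

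The number of calls was read against all genes at the same level. In EC-like cells 2 of the 9 genes were higher, against 6.19% of 7453 genes, and 2 were lower, against 8.0%. In branchial muscle-like cells 2 of 9 were higher, against 5.24% of 6930 genes, and 2 lower, against 4.47%. Epithelium-like cells had 1 of 8 higher (6.51% of 7804 genes) and 1 lower (5.98%). Mesenchyme-like cells had 1 of 8 higher (5.05% of 7997) and 1 lower (7.73%). Cardiomyocyte-like cells had 1 of 9 higher (9.57% of 5590) and 1 lower (15.5%), which is close to the background. In mesothelium-like cells 0 of 7 were higher (22.0% of 7514) and 1 lower (11.8%), and in neuron-like cells 0 of 6 were higher (3.79% of 7976) and 2 lower (10.9%). With so few genes, each call changes these shares by a large step. The median ratio of the 9 genes was -0.10 in EC-like and 0.01 in branchial muscle-like cells, beside -0.07 and -0.02 for all genes.

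Phases were called from S and G2/M genes that did not include the 9, at 5000 UMIs per cell, and these calls share RNA with the levels. The E-type cyclins followed the phases most closely. In the control, *Ccne1* was at 32.1 CPM in the 1290 cells called G1, 191 CPM in the 794 called S and 107 CPM in the 638 called G2/M, and *Ccne2* at 6.15, 63.5 and 13.3 CPM. In the mutant, *Ccne1* stood at 18.1, 99.6 and 47.7 CPM and *Ccne2* at 8.06, 49.9 and 12.3 CPM. Together they were higher in S-called than in G1-called cells by 2.73 on the log2 scale in the control (2.63 to 2.83) and by 2.52 in the mutant (2.40 to 2.64). Over all cells pooled, *Cdkn1a* went the other way, at 131 CPM in G1, 46.1 in S and 52.1 in G2/M in the control, and 156 (G1), 64.2 (S) and 72.0 CPM (G2/M) in the mutant. *Cdkn1b* was lowest in S in both libraries (20.8 and 30.1 CPM). *Cdk4* was lowest in G1, at 497 CPM against 751 in S in the control and 534 against 712 in the mutant.

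**Figure D4:**
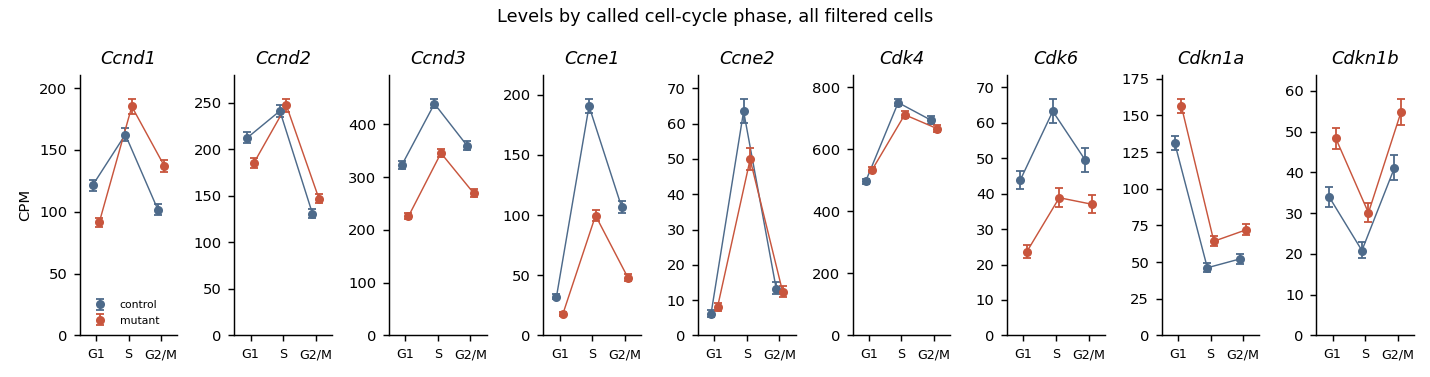
Level (CPM, linear axis from 0, scale differing by panel) of each gene in cells called G1, S or G2/M over all filtered cells, control in blue and mutant in red, with 95% counting intervals. *Ccne1* and *Ccne2* peak in S (191 and 63.5 CPM in the control), and *Cdkn1a* is highest in G1 (131 and 156 CPM).

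Branchial muscle-like cells supplied much of the pooled *Cdkn1a*, at 427 CPM in G1 and 27.5 CPM in S in the control and at 614 and 47.8 CPM in the mutant, and epithelium-like cells had the same order. Other classes did not follow it. In mutant mesenchyme-like cells *Cdkn1a* was at 8.01 CPM in G1, 22.1 CPM in S and 32.5 CPM in G2/M, and in mutant neuron-like cells at 56.7, 136 and 84.5 CPM. Both orders rest on few cells. In the mutant, 7 of 532 mesenchyme-like cells held 50% of the 147 *Cdkn1a* UMIs of that class. Only 3.33% of the 450 mutant neuron-like cells given a phase were called S. Mutant EC-like cells differed from the pooled order as well, with *Cdkn1a* at 84.6 CPM in G1, 131 CPM in S and 80.3 CPM in G2/M. In control EC-like cells it was at 20.2, 24.7 and 12.3 CPM, so that the mutant exceeded the control in each phase. These control levels rest on 28, 25 and 14 UMIs. The intervals of S over G1 and of G2/M over G1 held 0 there, so no order can be read in the control. Among G1-called EC-like cells alone (77 control and 362 mutant cells), the ratio was 2.07 for *Cdkn1a* (1.52 to 2.67), 1.22 for *Cdkn1b* and -1.07 for *Ccnd1*. The shares of EC-like cells called G1 were 48.4% and 50.6%. In branchial muscle-like cells the *Ccne1* ratio was -0.35 among G1-called cells, within 1.5-fold, whereas that of *Ccnd1* was 1.20.

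Branchial muscle-like cells comprised 3 clusters. One was led by *Msc*, *Myf5* and *Pax7* (437 control and 514 mutant cells), with 6.79% and 12.8% of its cells called G1, and is referred to as the progenitor cluster. Another, led by *Myh3* and *Myog*, is referred to as the differentiating cluster (303 and 218 cells, 76.4% and 69.6% G1), and the third was led by *Lama2* (148 and 113 cells). The *Lama2*-led cluster also had *Pax7* among its leading genes. Its summed progenitor list was at 2041 CPM in the control and 1108 CPM in the mutant, above the progenitor cluster (1757 and 797 CPM). The 9 genes took no part in the clustering, but genes that vary with them did, so the levels are given as a description. *Cdkn1a* stood at 21.6 CPM in the progenitor and 401 CPM in the differentiating cluster of the control, a difference of 4.22 on the log2 scale (4.05 to 4.39), and at 32.2 and 642 CPM in the mutant, a difference of 4.32. *Cdkn1b* was lower in the differentiating cluster instead, by -0.89 in the control and -0.71 in the mutant. *Ccnd1* was lower by -2.14 and -1.83, and *Ccne1* by -2.08 and -1.38. *Ccnd3*, the D-type cyclin that muscle is known to keep on as it differentiates, was nearly level, at 651 and 531 CPM in the control (-0.29) and 458 and 459 CPM in the mutant (0.00). Set against the *Lama2*-led cluster instead, *Ccnd3* was higher in the differentiating cluster, by 0.35 in the control (0.23 to 0.46) and 0.54 in the mutant (0.39 to 0.70). *Cdkn1a* was higher by 4.14 and 4.05 in that contrast, and *Cdkn1b*, *Ccnd1* and *Ccne1* were again lower. *Cdk4* turned its direction as well, from -0.59 and -0.42 against the progenitor cluster to 0.83 and 0.76 against the *Lama2*-led one. The *Lama2*-led cluster was shallow, with a median of 9723 UMIs per control cell and 8883 per mutant cell. The progenitor cluster had 33034 and 24782, and the part of depth in this contrast was not tested.

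Between libraries, the differences inside these clusters followed those of the whole class for several genes. *Ccnd1* was higher in the mutant by 0.77 in the progenitor and by 1.08 in the differentiating cluster, and in the *Lama2*-led cluster its ratio was 0.12 with an interval that held 0. *Ccne1* was lower by -1.06 in the progenitor cluster and by -1.06 in the *Lama2*-led cluster, and by -0.36 in the differentiating cluster. *Cdkn1a* was higher by 0.58, 0.68 and 0.77 in the progenitor, differentiating and *Lama2*-led clusters, the last of which was shallow. Each of these was above the ratio of the whole class (0.51). At resolution 0.8 the ratios in branchial muscle-like clusters ran from 0.55 to 1.53. The highest, 1.45 and 1.53, were in clusters with little *Cdkn1a* (7.22 to 19.7 and 12.9 to 37.4 CPM). In the progenitor cluster the summed progenitor list was at 1757 CPM in the control and 797 CPM in the mutant, and its part in these ratios was not tested.

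**Figure D5:**
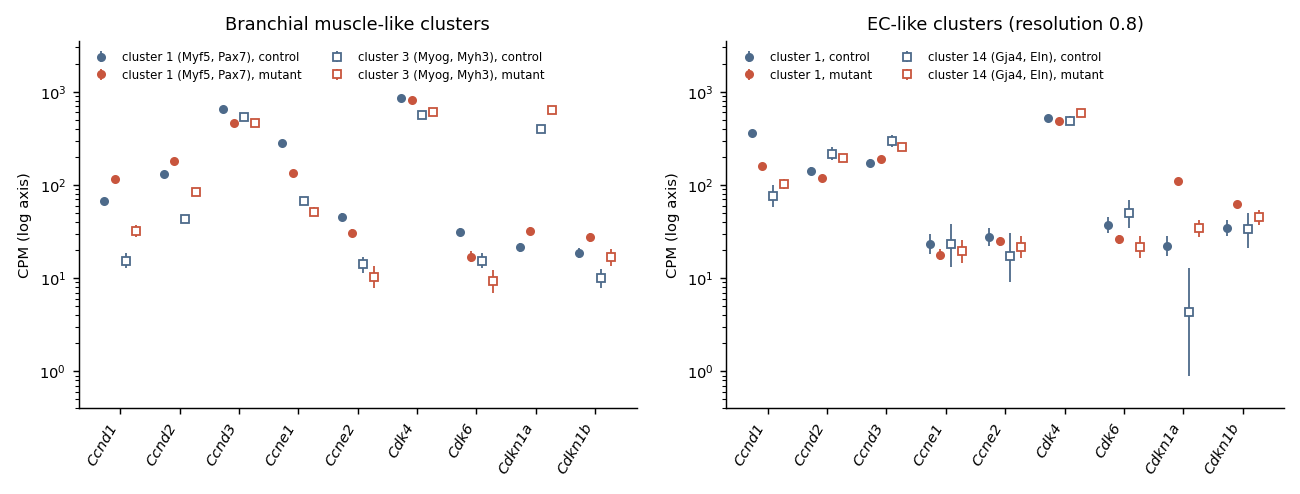
Levels (CPM, log axis) of the 9 genes in clusters of the branchial muscle-like (left) and EC-like (right) classes, control in blue and mutant in red, with 95% counting intervals. On the left, *Cdkn1a* is at 21.6 CPM in the filled and 401 CPM in the open control symbol, while *Ccnd3* lies between 458 and 651 CPM in every symbol; on the right, *Ccnd1* is lower in the mutant in cluster 1 (363 to 162 CPM) and not in cluster 14 (77.1 to 102 CPM).

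At a finer resolution EC-like cells fell into a large cluster (124 control and 607 mutant cells) and a smaller one led by *Gja4*, a gap junction gene of arterial endothelium, and *Eln* (38 and 138 cells). *Ccnd1* went from 363 to 162 CPM in the large cluster (-1.17, -1.28 to -1.06). In the *Gja4*-led cluster it went from 77.1 to 102 CPM, and the interval of the ratio held 0 (0.40, -0.03 to 0.86). *Cdkn1a* was higher in both, from 22.3 to 110 CPM (2.29) and from 4.37 to 34.5 CPM (2.98, 1.39 to 5.29). The ratio in the *Gja4*-led cluster rests on 3 control and 91 mutant UMIs, and the mean there was below the level for calls. *Cdk6* was lower in both, by -0.51 in the large and by -1.19 in the *Gja4*-led cluster.

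In neuron-like cells few cells held much of the *Ccnd1*. A total of 8 cells held 50% of its UMIs in each library, of 194 control and of 467 mutant cells. The class comprised 2 clusters, in which the direction was opposite: in the larger, *Ccnd1* went from 673 to 276 CPM (-1.29, -1.40 to -1.18), and in the smaller, with *Neurod1* among its leading genes, from 60.6 to 166 CPM (1.45, 1.15 to 1.76). Among mutant neuron-like cells it also differed between female-like (169 CPM) and male-like cells (376 CPM). By contrast, *Cdk4* was higher in the mutant in both neuron-like clusters (0.41 and 0.70).

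Male-like and female-like mutant cells stem from different embryos of a pool of 3. Their differences cannot be told apart from differences between those embryos. Because the libraries differed in sex, the ratios were also taken over female-like cells of both (146 control and 250 mutant EC-like cells). In EC-like cells the ratio was then -0.98 for *Ccnd1*, 2.39 for *Cdkn1a*, 0.52 for *Cdkn1b* and -0.78 for *Cdk6*. Male-like mutant EC-like cells differed from female-like ones by less than counting error for *Ccnd1* (-0.07) and *Cdkn1a* (-0.10), but had less *Ccnd3* (175 against 240 CPM) and more *Cdkn1b* (64.8 against 48.5 CPM, a ratio of 0.42, 0.20 to 0.64). They also had less *Cdk4* (465 against 553 CPM, a ratio of -0.25, -0.32 to -0.18). The *Cdkn1b* calls in EC-like and branchial muscle-like cells were lost over female-like cells, where the ratios, 0.52 and 0.56, were within 1.5-fold. In epithelium-like cells the *Cdkn1a* ratio over female-like cells was 1.43, and male-like mutant cells had more of it than female-like ones (111 against 70.1 CPM). Few cardiomyocyte-like cells were female-like (11 and 12 cells), and there the *Cdkn1a* ratio was -1.52 with an interval that held 0.

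The other genes of the pathway were read in EC-like cells from fixed lists. Of 29 partners of the G1/S machinery, 22 were at the level for calls, 0 were higher and 1 was lower: *E2f7*, an atypical E2F that represses E2F targets, went from 54.6 to 28.5 CPM (-0.94). Of the others, *Rbl1* had the next lowest ratio (-0.48), and *Cdkn2d* (0.54) and *E2f5* (0.33) the highest. *Cdkn1c*, the third inhibitor of the p21 family, was at 497 and 497 CPM, *Rb1* had a ratio of -0.05 and *E2f1* one of -0.27. None of 25 E2F targets of DNA replication was called, with *Ung* (-0.57), *Mcm7* (-0.46), *Cdc45* (0.39) and *Slbp* (0.18) at the ends and a median of -0.14. None of 20 mitotic genes was called either, with *Bub1b* (-0.58), *Mki67* (-0.57), *Ube2c* (0.11) and *Bub1* (0.06) at the ends and a median of -0.24. Those counts of 0 stand beside the 6.19% and 8.0% of all genes. Of 20 p53 targets, 10 were at the level for calls, and *Plk2* was called higher (336 to 510 CPM; 0.60) and *Sesn1* lower (36 to 21.2 CPM; -0.76). *Ccng1* had a ratio of 0.56, *Mdm2*, the ubiquitin ligase of p53, one of 0.49 and *Ei24* one of -0.13, with a list median of 0.27.

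In the other classes the lists did not follow the 9 genes in one way. In epithelium-like cells, where *Ccnd1* was lower and *Cdkn1a* higher, 8 of 20 mitotic genes were lower and 0 higher (median -0.52), and 3 of 24 E2F targets were lower, beside 5.98% of all genes. Of 11 p53 targets at the level for calls there, 3 were higher, beside 6.51%, and 1 was lower. In mesothelium-like cells, where *Ccne1* was lower, 10 of 23 E2F targets (median -0.57) and 12 of 18 mitotic genes (median -0.75) were lower, beside 11.8% of all genes. In mesenchyme-like cells, where *Cdkn1b* was higher and *Cdk6* lower, 6 of 20 mitotic genes were higher (median 0.48), beside 5.05% of all genes. In cardiomyocyte-like cells, where *Cdkn1a* was higher and *Cdk6* lower, 6 of 18 mitotic genes were higher (median 0.32), beside 9.57%, as were 3 of 10 p53 targets, with 2 lower. Branchial muscle-like cells had 0 of 20 mitotic genes called and 1 of 24 E2F targets lower, and 3 of 24 G1/S partners lower, beside 4.47% of all genes. They also had 2 of 10 p53 targets higher, beside 5.24%.

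Genes with the most similar levels over the 14 points (7 classes in 2 libraries) were sought among 7988 genes by Pearson's r of log2(CPM + 1). The points share libraries and depth, and the highest of so many correlations are high by selection, so they are a description. For *Ccne2* these were *Cenpa* (0.94), *Lig1* and *Ifrd2* (both 0.94), the first a centromeric histone and the second the DNA ligase of replication. For *Ccnd1* they were *Pik3r3* (0.93), a regulatory subunit of PI3K, *Nexmif* and *Hpcal1* (both 0.92). *Ccnd3* was closest to *Rbbp7* (0.96), *Pold2* (0.94) and *Eef1d* (0.93), *Ccnd2* to *Mmgt2* (0.89), and *Ccne1* to *Smyd5* (0.88). *Cdk4* was closest to *Nudt21* (0.93) and *Trim28* (0.92), *Cdk6* to *S100a11* (0.94), *Cdkn1a* to *Nars* (0.91), and *Cdkn1b* to *Vamp7* (0.87).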

How the data were processed

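Cells of E13.5 embryos were sorted for eYFP with dead cells excluded by 7-AAD, and libraries were made with the 10x 5′ v2 kit. The authors processed the reads with Cell Ranger 7.1.0 against GRCm38/mm10 and deposited raw UMI counts per gene and cell, and the annotation release and intron setting are not given in the sources used here. The study's limits on cells were applied: over 2000 but under 9000 genes, and mitochondrial UMIs under 10%. The 9 genes and the pathway lists were chosen with earlier results of these data known.

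Libraries were integrated by anchor-based CCA in Seurat 5.3.0 (R 4.3.3) with cell-cycle scores regressed, on 2000 variable genes from which 163 genes (the 9, the pathway lists and the phase genes) had been left out, with 30 components. Resolution 0.4, the lowest in steps of 0.1 to give at least 15 clusters, gave 17. Clusters were named X-like from fixed markers, by a rule set after the clusters were seen. At least 3 markers had to be raised 2-fold, at a share at least 1.5 times that of the next list. In addition, a marker had to be among the 10 leading genes of the cluster or 75% of the list had to be raised. Class names may differ from those of the study. Scrublet called 0 control cells and 1 mutant cell and so did not work as a caller, and doublets were kept in the main values. A 5000-UMI thinning was used for phase calls and for shares of cells.

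For each class in each library the UMIs of a gene were added up (Python 3.11.15, scipy 1.17.1) and divided by the class total. Levels carry exact Poisson, ratios conditional exact binomial and shares exact Clopper-Pearson intervals. Classes with at least 50 cells in each library were compared. All 9 genes are named in the text. From each list those with the 2 highest and 2 lowest EC-like ratios are named, with Cdkn1c, Rb1, E2f1 and Mdm2. The calculation of ratios was tested on simulated counts. These were drawn as independent Poisson counts from class sums, which is what the intervals assume. The simulation therefore could not show how the uneven spread of UMIs over cells bears on the intervals. The alternatives covered doublets, clustering, filters, scaling (edgeR 4.0.16 for TMM factors), depth, sex, phase and the limits of the calls.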

Additional observations from a re-analysis of the deposited data

Results flagged for a closer look

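*Ccnd1* had opposite directions in different classes. In branchial muscle-like cells its log2 ratio of mutant over control CPM was 0.81, against -1.02 in EC-like, -1.27 in epithelium-like and -0.75 in neuron-like cells, with no overlap of the counting intervals. With 1 library per genotype the difference between classes was not tested. Inside the neuron-like class the *Ccnd1* ratio was 1.45 in the smaller and -1.29 in the larger cluster, and this difference was not tested either.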

How the results depend on the processing

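No paired analysis was possible because each genotype had 1 library. Under the 12 alternatives that can change a ratio, 644 of 756 single values stayed within the counting interval and 111 moved further. The settings differed: 35 of 63 values stayed among G1-called cells, 39 over female-like cells and 41 with cells thinned to 5000 UMIs. In each of the other settings 53 or more stayed. Among the called values 1 reversed, the cardiomyocyte-like *Cdkn1a* ratio, -1.52 over 11 and 12 female-like cells. Counting uncalled values too, 6 with an interval off 0 turned their sign in at least 1 setting, among them mesenchyme-like *Cdkn1a* (-0.93 over female-like and -0.45 over G1-called cells), branchial muscle-like *Ccne2* (0.76 over G1-called cells) and neuron-like *Cdk6* (0.42 without integration). The 7 higher and 10 lower calls became 12 and 6 without integration, 4 and 6 at a mean of at least 50 CPM, and 2 and 4 at a fold limit of 2, and TMM scaling gave 13 higher. No share over all genes is given for these settings, so the counts cannot be read against a background. The stricter limits make fewer calls by construction, and for the others the cause was not tested. Without integration the neuron-like class held 87 control and 134 mutant cells, in place of 194 and 467. Of the 9 genes, 7 had the same highest class in both libraries, and 4 among G1-called cells. The *Ccnd1* share in control EC-like cells (46.5%) was 49.8% without integration and 39.6% among G1-called cells, and that in mutant cells (31.1%) was 29.7% over female-like and 28.6% over G1-called cells. The E-type difference between S and G1 was 2.92 (control) and 2.73 (mutant) with phases called at full depth. The EC-like median of the 9 genes ranged from -0.26 over female-like cells to 0.02 under TMM scaling, around 0. In EC-like cells *Ccnd1* (-1.10 to -0.91) and *Cdkn1a* (0.85 to 3.16) stayed beyond 1.5-fold in all 12 settings that could move them, *Cdkn1b* in 10 and *Cdk6* in 6. Low genes in classes of few cells rest on few UMIs, such as 24 and 41 for *Cdk6* in cardiomyocyte-like cells.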

Other observations

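Some groups of cells were not compared because no class name held or because a library had too few cells. In the cluster led by globin and macrophage genes (173 control and 176 mutant cells), both inhibitors were lower in the mutant, *Cdkn1a* from 242 to 69.2 CPM (-1.81, -1.99 to -1.63) and *Cdkn1b* from 51.3 to 20.6 CPM (-1.32, -1.66 to -0.98). *Ccnd1* was lower there too, from 83.5 to 46.4 CPM (-0.85). *Cdk6*, lower in the mutant in the 7 compared classes, was higher in this cluster, from 104 to 124 CPM (0.255, 0.08 to 0.43). The cluster mixed cell types whose numbers differed between libraries: at resolution 0.8 it parted into erythroid-like cells (81 control and 135 mutant cells) and macrophage-like cells (92 and 41). *Cdkn1a* had a ratio of -1.87 in both, from 262 to 71.7 CPM in erythroid-like and from 224 to 61.4 CPM in macrophage-like cells, and *Cdkn1b* had ratios of -1.31 and -1.18. The *Ccnd1* ratio was -0.32 in erythroid-like cells, with an interval that held 0 (-0.68 to 0.04), and -0.85 in macrophage-like cells (-1.25 to -0.48). For *Cdk6* the ratios were -0.06 and 0.18, and both intervals held 0. In the cluster led by *Adh1*, *Wnt2* and *Tbx4* (346 and 72 cells), *Cdk6* went from 78.3 to 45.5 CPM (-0.78) and *Ccne2* from 29.1 to 18.8 CPM (-0.63). The 47 hepatoblast-like cells, all in the mutant library and expressing *Afp* and *Alb*, had *Ccnd1* at 264 CPM, 55.1% of their D-type cyclin UMIs, and *Cdkn1a* at 64.2 CPM. Within mutant mesenchyme-like cells *Cdkn1a* was at 6.34 CPM in female-like and 23.9 CPM in male-like cells.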
